A study of Mus musculus with 111 samples.

Results

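The 91 genes described here encode subunits and assembly factors of the mitochondrial respiratory chain and of ATP synthase. They were chosen by name: every gene of the array whose symbol begins with Nduf, Uqcr or Atp5, or with Cox followed by a number from 4 to 8, and Sdha, Sdhb, Sdhc, Sdhd and Cyc1. They make up 91 of the 18194 genes that a probe set with 1 symbol names. By complex, 6 were core and 28 accessory subunits of complex I, 8 were complex I assembly factors, 4 belonged to complex II, 9 to complex III and 10 to complex IV. A further 9 were tissue-restricted or related isoforms of complex IV subunits. ATP synthase had 5 genes of its catalytic F1 part, 4 of its stalk and 8 of its membrane part. A gene with several probe sets was read from the one that was brightest on average over the 111 arrays.

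Expression was measured on Affymetrix arrays in sorted striatal cells of mice that model Huntington's disease, together with wild-type (WT) littermates. R62 mice (R6/2) carry exon 1 of the human huntingtin gene with an expanded CAG repeat as a transgene, and were taken with WT mice at 6 and 12 weeks. Q175 mice (zQ175) carry an expanded repeat knocked into their own Htt gene, and were taken with WT mice at 6 and 12 months. Each pool of striata gave 3 fractions: astrocytes (GLT1+/CD11b-), microglia (GLT1-/CD11b+) and cells with neither surface protein (GLT1-/CD11b-), called the negative fraction. In every fraction there were 5 R62 and 5 WT samples at 6 weeks, 6 R62 and 5 WT samples at 12 weeks, and at both 6 and 12 months 4 Q175 and 4 WT samples, which gave 24 groups and 111 arrays. Each sample pooled the striata of 1 genotype in 1 litter, so an SD or a p-value measures the spread between pools. The pools are numbered from 1 to 37, and the samples of 1 number are the fractions of 1 pool. R62 and WT were compared only at the week ages and Q175 and WT only at the month ages, so the models differ in age as well as in allele.

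Complex I (NADH dehydrogenase) and complex II (succinate dehydrogenase) pass electrons to ubiquinone, complex III passes them to cytochrome c, and complex IV (cytochrome c oxidase) passes them to oxygen. Complexes I, III and IV pump protons, and ATP synthase uses the gradient to make ATP. Most subunits are made in all cells, but several subunits of complex IV have a second gene used in muscle, testis, lung or vessel-associated cells. Astrocytes are often described as relying more on glycolysis than neurons do, although they have a full respiratory chain. The subunits encoded by mitochondrial DNA are not among the genes described here.

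The sort separated its target cells, and it left RNA of other cells in each fraction. The mean of the 9 microglia markers on the array had group means between 12.47 and 12.64 in the microglia fraction and between 4.73 and 5.47 in the astrocyte fraction. The mean of 10 astrocyte markers lay between 12.14 and 12.39 in the astrocyte fraction and between 7.89 and 8.86 in microglia. Oligodendrocyte markers stood at 12.17 to 12.60 in the astrocyte fraction, about as high as its astrocyte markers. In the microglia fraction they stood at 7.92 to 8.54 at the week ages and at 10.22 to 11.19 at the month ages. The word astrocytes below stands for the whole GLT1+/CD11b- fraction, with its oligodendrocyte RNA. The negative fraction held endothelial and mural (vessel) markers at 10.94 to 12.06 and oligodendrocyte markers at 11.67 to 12.72. At 12 weeks, pools 12 and 20 of the 5 WT pools had a mean of Y-linked genes between 2.80 and 3.85, against 7.21 to 9.26 in the R62 pools. From here on all levels are log2 array signals, and differences are log2 differences given with their standard error (±) from limma. The word called means an adjusted p under 0.05 in limma, with Benjamini-Hochberg adjustment over all genes tested. Fewer cells of a type and less RNA per cell cannot be told apart in these samples.

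Promoters were available in the RefSeq table (build GRCm38.p6) for 74 of the 91 genes, as the 250 bases before the annotated start. A gene with several starts counted as holding a motif if any of its windows did. The motif of nuclear respiratory factor NRF1, GCGCA and GCGC with any single base between them, occurred on either strand in 12 of the 74 (16.2%) against 4.23% of the 27025 genes of the table. The letters CCGGAAG, also sought on both strands and bound by ETS factors such as GABPA (nuclear respiratory factor 2), occurred in 14 (18.9%) against 7.83%. At least one of the pair occurred in 23 members (31.1%) against 11.3% of all genes of the table, with no overlapping matches. CAAGGTCA, the motif of estrogen-related receptors, occurred in 3 members (4.05%, against 1.51%). AAGATGGC, the motif of YY1, occurred in 1 member, Atp5j (1.35%, against 1.83%). The median number of CpG dinucleotides per 250 bases was 15.5 in 70 members other than the tissue-restricted isoforms, 6 in the 4 such isoforms with a promoter and 6 in all genes of the table. The highest number was taken for a gene with several starts. A match is a run of letters and not a measured binding site. Below are the promoters of the broadly used subunit Cox6b1 and of its tissue-restricted counterpart Cox6b2, the member called in the most comparisons of genotypes, followed by Cox6a1, which holds 3 matches, and Cox7b2, an isoform whose astrocyte means lay above those of all other groups. All 4 lie on the minus strand and are printed 5′ to 3′ on that strand, and capitals mark matches to the NRF1 or ETS letters or their reverse complements.
Cox6b1: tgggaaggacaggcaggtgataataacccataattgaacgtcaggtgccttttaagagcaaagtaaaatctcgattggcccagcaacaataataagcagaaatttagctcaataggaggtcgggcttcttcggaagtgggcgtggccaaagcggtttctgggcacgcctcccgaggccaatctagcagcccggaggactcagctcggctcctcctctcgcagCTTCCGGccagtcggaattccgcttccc
Cox6b2: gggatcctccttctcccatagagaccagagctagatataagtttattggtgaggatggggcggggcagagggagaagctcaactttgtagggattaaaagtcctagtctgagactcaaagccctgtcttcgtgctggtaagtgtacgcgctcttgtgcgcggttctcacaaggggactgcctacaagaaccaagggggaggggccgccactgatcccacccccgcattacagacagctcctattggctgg
Cox6a1: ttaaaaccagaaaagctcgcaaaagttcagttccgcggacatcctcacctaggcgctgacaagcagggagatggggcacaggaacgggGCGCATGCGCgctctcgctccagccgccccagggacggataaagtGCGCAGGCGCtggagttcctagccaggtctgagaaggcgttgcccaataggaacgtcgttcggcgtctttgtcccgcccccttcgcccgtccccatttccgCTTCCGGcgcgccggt
Cox7b2: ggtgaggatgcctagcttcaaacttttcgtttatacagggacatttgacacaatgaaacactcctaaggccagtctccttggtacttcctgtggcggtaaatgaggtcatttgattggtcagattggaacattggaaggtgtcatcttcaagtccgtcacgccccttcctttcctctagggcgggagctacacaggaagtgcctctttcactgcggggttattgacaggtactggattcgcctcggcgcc
They lie at chr7:30626115-30626364 (Cox6b1), chr7:4753095-4753344 (Cox6b2), chr5:115348959-115349208 (Cox6a1) and chr5:71548206-71548455 (Cox7b2). Cox6b1 had 1 match and 14 CpG dinucleotides, and Cox6a1 had 3 matches and 26. Cox6b2 and Cox7b2 had 0 matches, with 8 and 9 CpG dinucleotides. That says only that these letters are not in these windows.

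The question of the first comparison was how the chain differs between the sorted fractions of the WT striatum. Respiratory chain and ATP synthase genes were highest in the astrocyte fraction, intermediate in the negative fraction and lowest in the microglia fraction. The part of oligodendrocyte RNA in the level of the astrocyte fraction was not tested. The mean over all 91 genes in WT astrocytes was 11.14 ± 0.08 (SD, n = 5) at 6 weeks, 11.26 ± 0.05 (n = 5) at 12 weeks, 11.13 ± 0.03 (n = 4) at 6 months and 11.13 ± 0.02 (n = 4) at 12 months. In WT microglia it was 10.40 ± 0.09, 10.60 ± 0.11, 10.64 ± 0.04 and 10.64 ± 0.05 at the same ages. In the WT negative fraction it was 10.84 ± 0.02, 10.96 ± 0.08, 10.95 ± 0.09 and 10.97 ± 0.05.

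**Figure D1:**
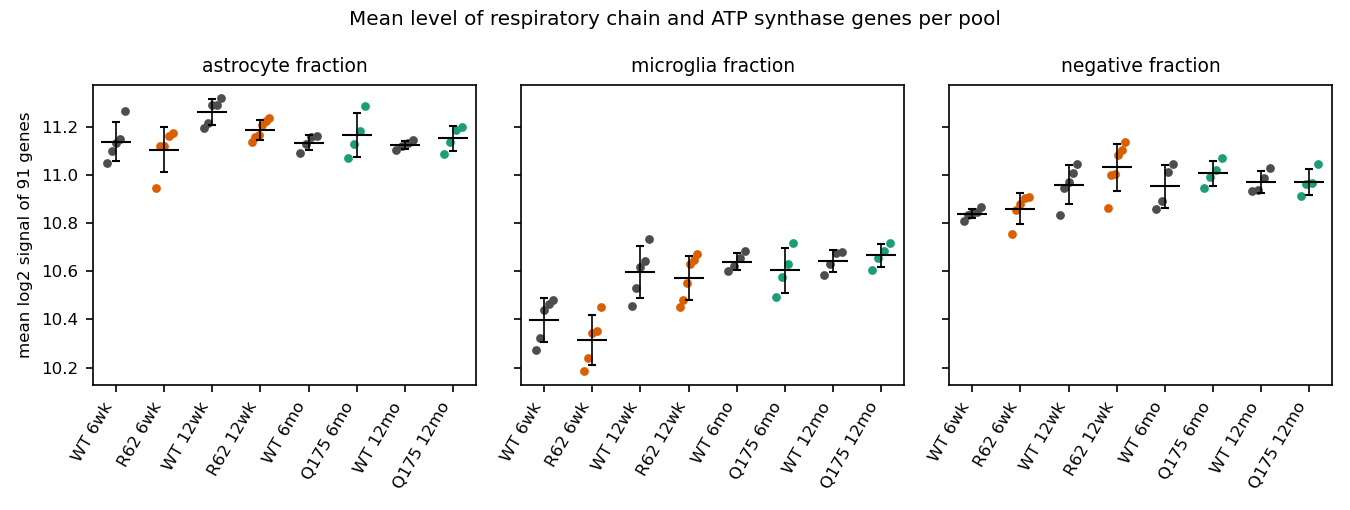
Mean log2 signal over the 91 genes in each sample (points) by fraction, age and genotype, with the group mean. Astrocyte samples lie above the microglia samples of every age, while R62 or Q175 and WT samples of a fraction and age lie close together.

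Of the 87 members that passed the filter on dim genes in the WT samples, 79 were higher in astrocytes than in microglia and 4 were lower. Over all 12477 genes tested, 85.6% were called, 44.9% higher and 40.7% lower. The median difference of the members was 0.62, against 0.05 over all genes. The direction held in every complex. All 6 complex I core subunits were higher (median 0.75), as were 25 of 27 accessory subunits (median 0.64), all 4 complex II genes (0.57), all 9 complex III genes (0.73) and all 10 broadly used complex IV genes (0.62). In ATP synthase, all 5 F1 genes (0.48), all 4 stalk genes (0.58) and 7 of 8 genes of the membrane part (0.59) were higher. Of the 8 complex I assembly factors, 5 were higher and 1 was lower (median 0.29). Of the 6 tested isoforms of complex IV, 4 were higher and 2 were lower.

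Among the accessory subunits of complex I, Ndufs5 was 1.31 ± 0.06 higher in astrocytes than in microglia, Ndufb2 1.23 ± 0.06 and Ndufb9 1.18 ± 0.07. Uqcrfs1, the Rieske iron-sulphur protein of complex III, was 1.17 ± 0.06 higher, and Cyc1, the cytochrome c1 of the same complex, 1.01 ± 0.07. In complex II, the flavoprotein gene Sdha was 0.52 ± 0.05 higher, the iron-sulphur gene Sdhb 0.66 ± 0.06, and the membrane anchors Sdhc 0.63 ± 0.05 and Sdhd 0.20 ± 0.04. In complex IV, Cox6c was 1.12 ± 0.05 higher and Cox5a 0.93 ± 0.04. Atp5b, the catalytic beta subunit of ATP synthase, was 0.64 ± 0.04 higher. The assembly factor Ndufaf2 was 1.09 ± 0.09 higher. The limma adjusted p of the genes named in this paragraph was at most 5.43e-05, the value of Sdhd.

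The members that were lower in astrocytes than in microglia were the muscle isoform Cox6a2, Cox7a2l, the assembly factor Ndufaf7 (-0.34 ± 0.06) and the accessory subunit Ndufb1 (-0.31 ± 0.08). Ndufb1 was dim, with a mean of 5.90 over all arrays from 1 probe set, at percentile 33.6 of gene means. Cox7a2l, which joins complexes III and IV into supercomplexes, differed by -0.91 ± 0.05, with WT group means of 11.16 to 11.40 in astrocytes, 11.98 to 12.33 in microglia and 11.67 to 11.99 in the negative fraction. The WT means of Cox7a2l in microglia at any age thus lay above those in astrocytes, the reverse of most chain genes.

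Astrocytes and the negative fraction differed less. Of 87 members, 67 were higher in astrocytes and 5 lower (75.9% of all genes called, 38.7% higher and 37.2% lower), with a median difference of 0.26. By complex, 6 of 6 core subunits of complex I, 4 of 4 genes of complex II, 8 of 9 of complex III and 8 of 10 of complex IV were higher in astrocytes. Cox7c was 0.92 ± 0.15 higher, Ndufaf6 0.87 ± 0.09, Uqcrfs1 0.78 ± 0.06, Cyc1 0.77 ± 0.07 and the complex I core subunit Ndufs1 0.65 ± 0.05. Lower in astrocytes were Ndufa4l2, Cox4i2, Cox7a2l (-0.58 ± 0.05), Ndufa7 (-0.31 ± 0.06) and Ndufa1 (-0.16 ± 0.07). The call of Ndufa1 was lost without any of 5 single libraries and its difference was 0.01 with the week ages alone. In microglia against the negative fraction, 69 of 87 members were lower and 9 higher (83.7% of all genes called, 43.5% lower and 40.2% higher), with a median of -0.33. The 9 were Cox6a2, Ndufaf6 (0.72 ± 0.09), Ndufaf7 (0.43 ± 0.06), Ndufb1 (0.34 ± 0.08), Cox7a2l (0.33 ± 0.05), Ndufaf4 (0.20 ± 0.07), Ndufa9 (0.20 ± 0.04), Ndufs8 (0.17 ± 0.05) and Sdhd (0.10 ± 0.04, adjusted p = 0.0372 by limma, lost without any of 12 single libraries). With every array centred on its median, the split for microglia against the negative fraction was 46 lower and 16 higher.

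**Figure D2:**
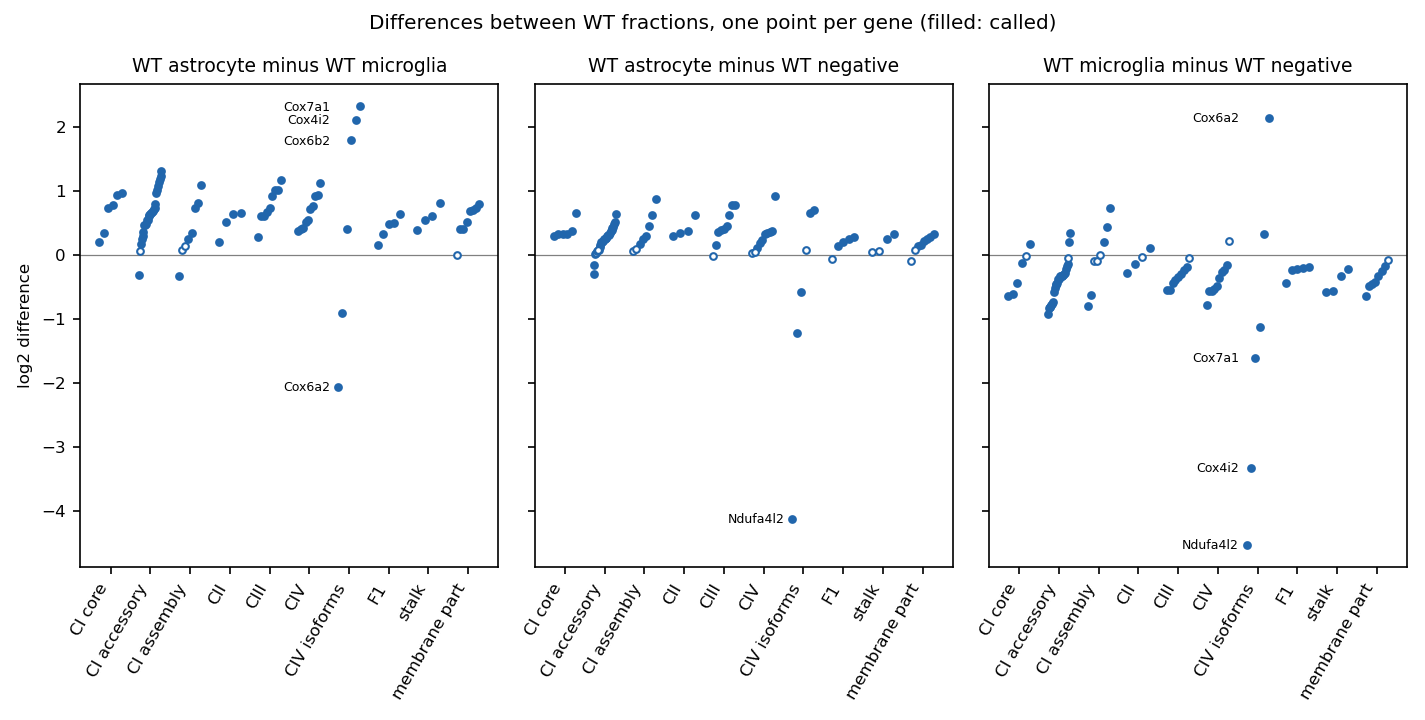
Log2 differences between WT fractions for each of the 87 tested members, grouped by complex, in 3 panels (astrocytes minus microglia, astrocytes minus negative, microglia minus negative); each point is 1 gene. Most points lie above 0 in the panels with astrocytes and below 0 in the other, and the isoforms of complex IV span the widest range, from -4.54 to 2.32.

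The direction was seen at each age, over all 91 genes with no filter. In WT samples the astrocyte mean exceeded the microglia mean for 86 of 91 members at 6 weeks, 84 at 12 weeks and 80 at each of 6 and 12 months, while 43.9%, 42.2%, 48.2% and 44.0% of all genes had that direction. The median difference of the members was 0.75 at 6 weeks, 0.66 at 12 weeks, 0.50 at 6 months and 0.46 at 12 months. Oligodendrocyte markers in microglia were higher at the month ages, as given above, and their part in the smaller difference was not tested. Week and month samples also came from different cohorts.

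Over the 24 group means, 58 of the 91 members had a correlation above 0.8 with the mean of the other members, and the median correlation was 0.88. The points share libraries and the cell fractions set most of this pattern, so it is a description. Ndufv2 and Ndufa13 followed the rest most closely, with correlations of 0.99 and 0.98. The mean was highest in an astrocyte group for 72 members and lowest in a microglia group for 79. The correlation was below 0 for 6 members: Cox7a2l (-0.85), Cox6a2 (-0.78), Cox8c (-0.67), Ndufaf7 (-0.59), Ndufb1 (-0.27) and Ndufaf6 (-0.01).

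The isoforms of complex IV differed in the fraction where they were highest. Cox6a2, the heart and muscle form of subunit VIa, was the isoform of microglia, with a difference of -2.06 ± 0.12 for astrocytes minus microglia and of 2.14 ± 0.12 for microglia minus the negative fraction. Its WT means in microglia were 7.55 ± 0.05 at 6 weeks, 8.37 ± 0.33 at 12 weeks, 8.61 ± 0.42 at 6 months and 9.10 ± 0.19 at 12 months, and all astrocyte and negative groups of either genotype lay between 5.95 and 6.62. The difference between 6 and 12 months in WT microglia, 0.49, was not called (limma adjusted p = 0.143). Its broadly used partner Cox6a1 had means of 12.02 to 12.70 in microglia and 12.58 to 13.15 in astrocytes.

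Cox7a1, the muscle form of subunit VIIa, was 2.32 ± 0.15 higher in astrocytes than in microglia, and its excess over the negative fraction was 0.71 ± 0.15. Cox7a1 passed the filter over all WT samples but was below it in the microglia fits of both models. Its microglia values may not be above background, so the size of the difference against microglia is uncertain. Its group means were 7.25 to 8.01 in astrocytes, 4.99 to 5.52 in microglia and 6.44 to 7.19 in the negative fraction, while its partner Cox7a2 lay between 12.56 and 13.35 in all groups. Cox6b2, the testis form of subunit VIb, was highest in astrocytes too, by 1.78 ± 0.10 over microglia and 0.66 ± 0.10 over the negative fraction. Cox7b2, the testis form of subunit VIIb, was too dim on average to pass the filter. Its astrocyte means were 6.09 to 6.73, against 2.93 to 3.53 in microglia. In the negative fraction they were 2.87 to 3.44 in every group other than R62 at 12 weeks (4.49 ± 0.92). These low values lie near the bottom of the scale and may not be above background, so no difference against them is given. Cox8c, also dim, had group means of 5.28 to 5.61 in astrocytes, 5.69 to 6.16 in microglia and 5.17 to 5.48 in the negative fraction. The other 2 members below the filter in the WT samples were Cox8b and Ndufb4.

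Ndufa4l2 and Cox4i2 marked the negative fraction. Ndufa4l2 is a paralogue of the complex IV subunit gene Ndufa4 that hypoxia induces, and pericytes of brain vessels express it. Relative to the negative fraction it differed by -4.13 ± 0.13 in astrocytes and by -4.54 ± 0.13 in microglia, and its negative fraction means were 9.07 to 11.75 against 5.96 to 7.51 in astrocytes. Cox4i2, the lung form of subunit IV, differed from the negative fraction by -1.22 ± 0.16 in astrocytes and by -3.33 ± 0.16 in microglia. Cox4i2 was below the filter in the microglia fit of the Q175 model. Its values there may not be above background, so the size of the microglia difference is uncertain. The partners Ndufa4 and Cox4i1 had the direction of the other chain genes and were 0.92 ± 0.06 and 0.42 ± 0.04 higher in astrocytes than in microglia. The vessel markers were also highest in the negative fraction, and their part in these differences was not tested.

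**Figure D3:**
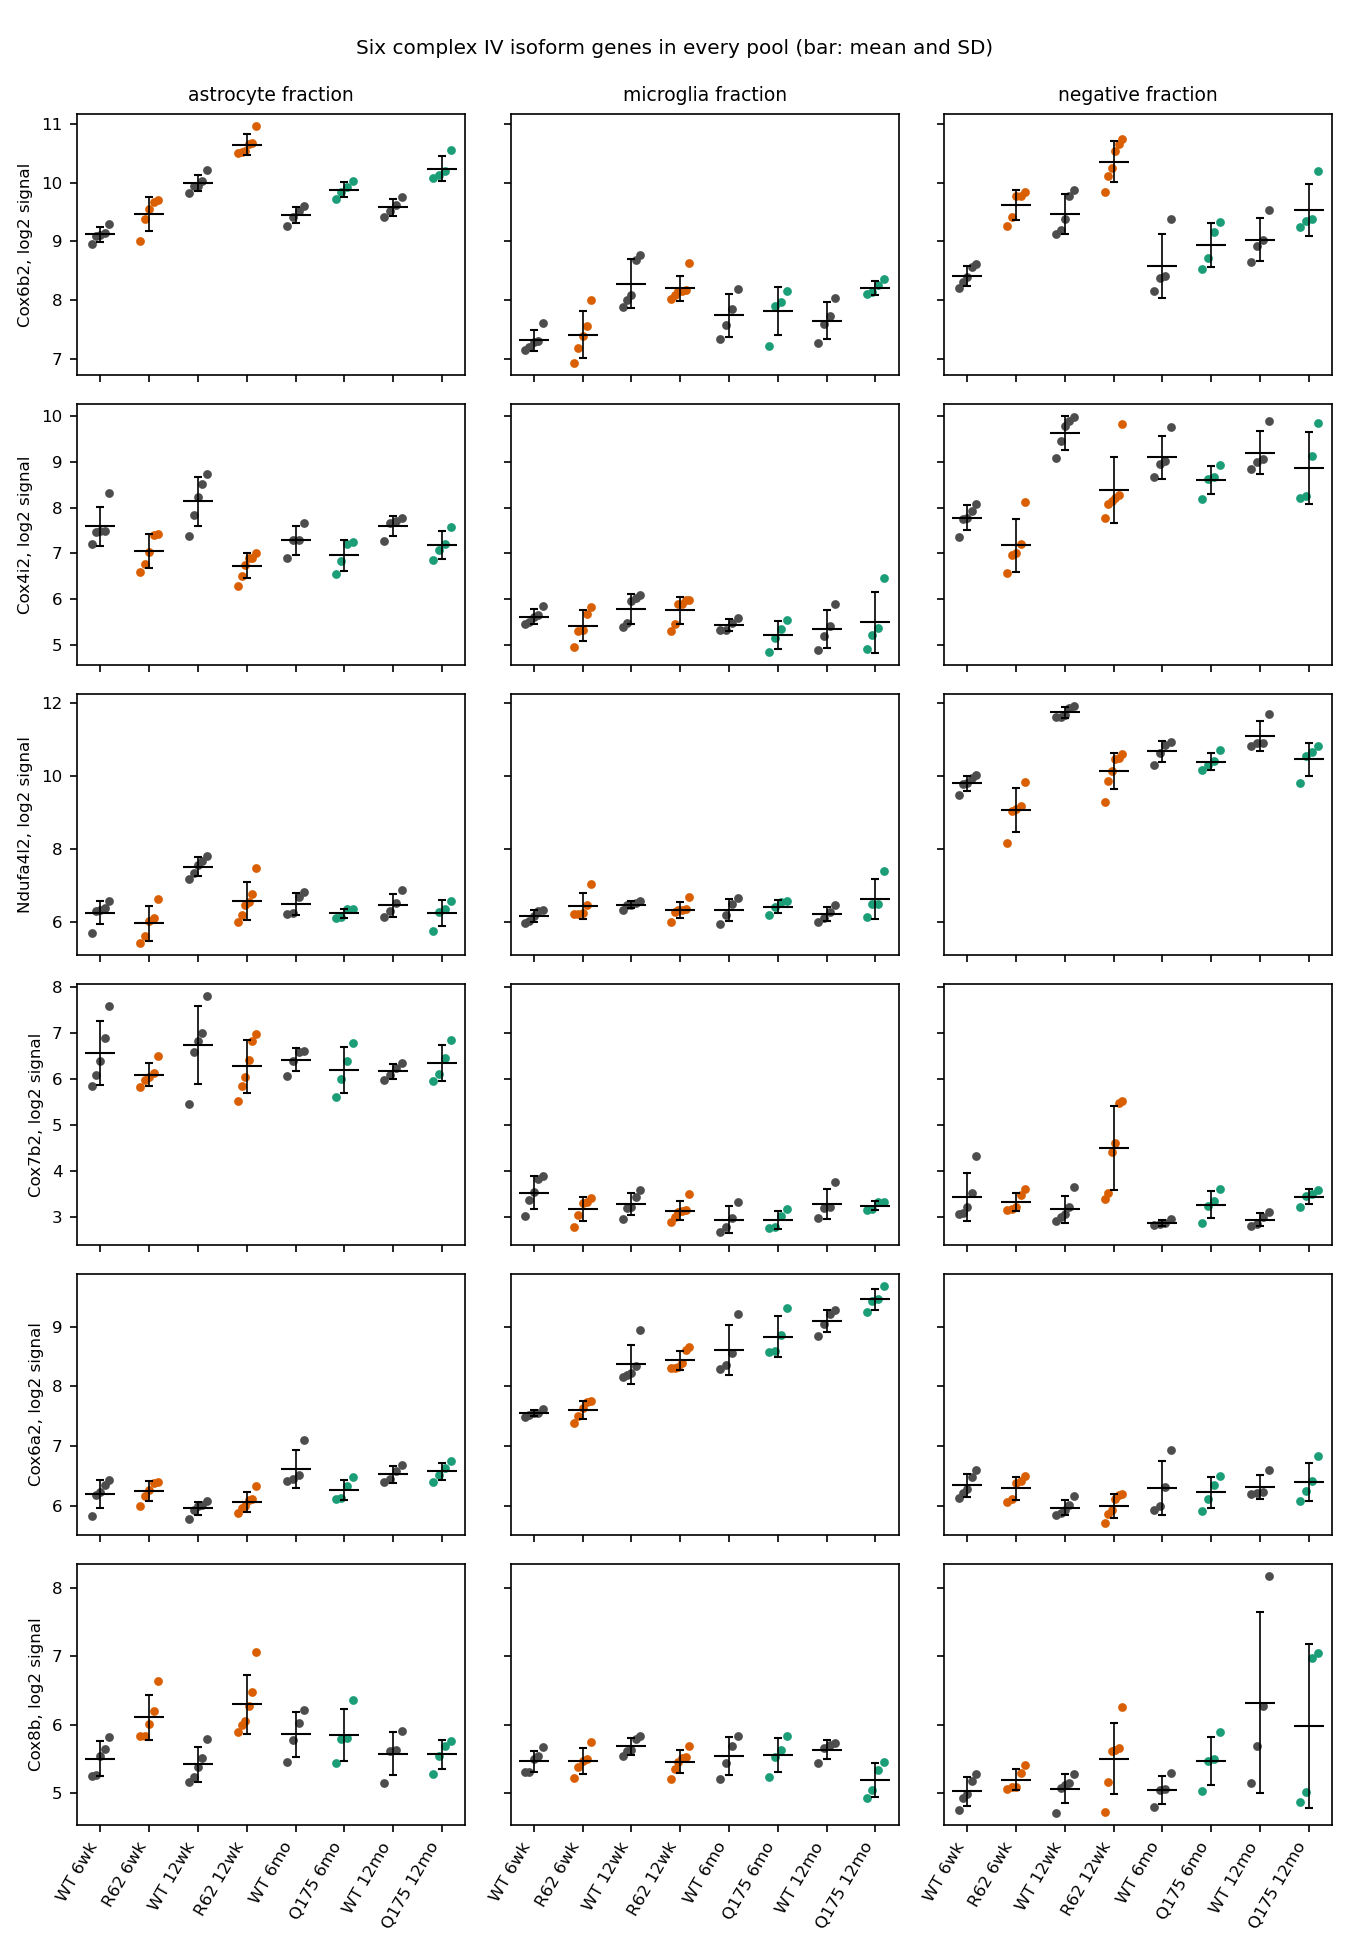
Log2 signal of 6 isoforms of complex IV subunits in each sample (points), by fraction, age and genotype. Cox6a2 is highest in microglia, Cox7b2 in astrocytes and Ndufa4l2 and Cox4i2 in the negative fraction. Within the astrocyte fraction, Cox6b2 in R62 samples at 12 weeks (10.51 to 10.97) lies above WT.

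The second question was whether the mutant huntingtin alleles change the chain within a fraction. Few members were called, and the largest called differences were those of tissue-restricted isoforms of complex IV. The mean over all 91 genes in astrocytes was 11.11 ± 0.09 in R62 at 6 weeks (WT 11.14), 11.19 ± 0.04 at 12 weeks (WT 11.26), and 11.17 ± 0.09 and 11.15 ± 0.05 in Q175 at 6 and 12 months (WT 11.13 at both). In microglia it was 10.31 ± 0.10 and 10.57 ± 0.09 in R62 (WT 10.40 and 10.60) and 10.60 ± 0.09 and 10.67 ± 0.05 in Q175 (WT 10.64 at both). In the negative fraction it was 10.86 ± 0.06 and 11.03 ± 0.10 in R62 (WT 10.84 and 10.96) and 11.01 ± 0.05 and 10.97 ± 0.06 in Q175 (WT 10.95 and 10.97). For most members the 95% interval of the difference lay within 0.5 log2 units on either side of 0. This held in astrocytes for 83 of 89 tested members at 6 weeks, 78 of 89 at 12 weeks and 83 of 90 at each month age. In microglia it held for 80 and 77 of 88 in R62 and for 81 and 79 of 87 in Q175. In the negative fraction it held for 80 and 78 of 86 in R62 and for 74 and 64 of 88 in Q175, where the median half-width was widest (0.25, against 0.15 to 0.22 elsewhere).

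In astrocytes of R62 mice at 12 weeks, 2 of 89 tested members rose and 9 fell, and the median difference over the members was -0.06 (all genes 0.00). Over all genes, 28.7% were called in this comparison, 14.5% higher and 14.2% lower, which is the background of these counts. The isoforms of complex IV made up 4 of the 11 calls. In complex III, Uqcr11 and Uqcrq fell among 9 genes. In complex I, the accessory subunits Ndufs5 (-0.24 ± 0.08) and Ndufb2 (-0.24 ± 0.07) and the assembly factors Ndufaf2 (-0.30 ± 0.10) and Ndufaf3 (-0.29 ± 0.11) fell, and in ATP synthase Atp5d (-0.17 ± 0.06), a subunit of the central stalk of F1. The limma adjusted p of these 5 genes lay between 0.0208 and 0.0489. Their calls were less firm: Ndufb2 was lost without WT pool 14 or 16, Ndufaf2 without WT pool 12 or 16 or R62 pool 19 or 21, Ndufs5 without WT pool 14, 16 or 20 or R62 pool 11 or 21, Atp5d without any of 7 single pools and Ndufaf3 without any of 8. No core subunit of complex I, no gene of complex II and no broadly used subunit of complex IV was called on the values as deposited. When each array was centred on its median, which was 0.05 higher in R62 than in WT astrocytes at 12 weeks, 21 members fell and 2 rose. These included Sdhb (-0.31) and Sdhc (-0.24) of complex II and Cox5a (-0.20) of complex IV, with limma adjusted p-values of 0.0360, 0.0286 and 0.0482. On the values as deposited, the count of called members was 7 without WT pool 14 and 6 without WT pool 16.

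Cox4i2 in astrocytes at 12 weeks was 6.29, 7.01, 6.91, 6.51, 6.89 and 6.76 in the 6 R62 pools and 7.84, 7.38, 8.73, 8.24 and 8.50 in the 5 WT pools. The groups did not overlap, and the difference was -1.41 ± 0.23 (limma adjusted p = 0.000164). The WT mean of 8.14 at this age was the highest of the 8 astrocyte groups, whose other means ran from 6.73 to 7.60. Ndufa4l2 was 6.18, 6.46, 5.98, 6.54, 6.76 and 7.46 in R62 and 7.67, 7.81, 7.57, 7.33 and 7.17 in WT, where R62 pool 21 overlapped the lowest WT pools, with a difference of -0.95 ± 0.24 (adjusted p = 0.00558 by limma). Its WT mean of 7.51 was again the highest astrocyte mean, the others being 5.96 to 6.56. Vessel markers in the astrocyte fraction averaged 8.78 ± 1.14 (7.68 to 10.40) in these R62 samples and 9.47 ± 0.46 (8.84 to 9.97) in WT. Each of the 8 tested markers was lower in R62, from -1.14 for Kdr to -0.37 for Pdgfrb, and 1 was called, Pdgfrb. With the mean of the vessel markers as a covariate, the difference was -1.46 for Cox4i2 and -0.69 for Ndufa4l2 (limma adjusted p = 0.000198 and 0.0012). That mean pools endothelial and mural genes and was itself lower in R62. The part of vessel cells in these differences was not tested.

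Cox6b2 rose in astrocytes of R62 mice at 12 weeks. It was 10.51, 10.68, 10.66, 10.97, 10.52 and 10.54 in the R62 pools and 9.95, 9.83, 10.21, 10.03 and 9.94 in the WT pools. Every R62 pool lay above every WT pool, and the difference was 0.66 ± 0.11 (limma adjusted p = 0.000261). The partner Cox6b1 stood at 13.02 ± 0.03 in R62 and 13.01 ± 0.05 in WT. Cox8b, the heart and muscle form of subunit VIII, was 6.28, 6.01, 6.48, 5.90, 7.07 and 6.06 in R62 and 5.17, 5.24, 5.80, 5.38 and 5.52 in WT. These groups did not overlap either, and the difference was 0.88 ± 0.19 (limma adjusted p = 0.00191), at a level close to the limit of the filter. Cox8b did not pass the filter in the WT samples, and its WT values here may not be above background, so the size of this difference is uncertain.

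Uqcr11 and Uqcrq encode small subunits of complex III. In astrocytes at 12 weeks Uqcr11 was 10.87, 10.99, 11.07, 10.84, 10.76 and 10.83 in R62 and 11.24, 11.36, 11.38, 11.17 and 11.15 in WT, with no overlap and a difference of -0.36 ± 0.08 (limma adjusted p = 0.00285). Uqcrq was 11.06, 11.06, 11.08, 10.49, 10.54 and 10.80 in R62 and 11.25, 11.38, 11.19, 11.15 and 11.14 in WT, also with no overlap (-0.38 ± 0.11, limma adjusted p = 0.0151). The other 3 probe sets of Uqcrq, all dimmer, differed by -0.17, -0.34 and 0.42, so they disagree in sign. The calls of Cox4i2, Ndufa4l2, Cox6b2, Cox8b, Uqcr11 and Uqcrq were kept whichever single pool was left out. Both WT pools of low Y-linked level were also left out together. Over the astrocyte and negative fractions of R62 at 12 weeks, that fit lost 6 calls of named members and kept 12.

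At 6 weeks no member was called in R62 astrocytes (0 of 89 by limma, 4 at an unadjusted p below 0.05, with 1.2% of all genes called). Cox6b2 was 9.67, 9.004, 9.69, 9.39 and 9.56 in R62 and 9.09, 9.14, 9.29, 8.95 and 9.11 in WT, a difference of 0.35 (limma adjusted p = 0.187). R62 pool 7 was the low value, and without it the difference was 0.46 with a limma adjusted p of 0.0293. Cox8b differed by 0.60 and Ndufaf2 by -0.24 at that age (limma adjusted p = 0.171 and 0.348). In Q175 astrocytes at 6 months no member was called either (0 of 90 by limma, 7 at an unadjusted p below 0.05, 0.38% of all genes). Cox6b2 was 9.83, 9.72, 9.93 and 10.02 in Q175 and 9.52, 9.26, 9.41 and 9.59 in WT, with no overlap and a difference of 0.43 (limma adjusted p = 0.220). Next in order of p at 6 months came Ndufa3 (0.20) and Atp5g1 (0.18). At 12 months 1 of 90 members was called, where 5.9% of all genes were, 4.33% higher. This was Cox6b2, at 10.55, 10.20, 10.12 and 10.07 in Q175 and 9.41, 9.76, 9.52 and 9.62 in WT, again with no overlap (0.66 ± 0.12, limma adjusted p = 0.00394). The next members at 12 months were Ndufaf6 (-0.29) and Ndufa12 (-0.16). Cox6b2 was thus the 1 member called in astrocytes of both models at the later age, and its R62 difference at 12 weeks and Q175 difference at 12 months come from separate pools and separate WT samples.

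In microglia the chain differed little between genotypes. No member was called in R62 at 6 weeks (0 of 88 by limma, 2 at an unadjusted p below 0.05, 0.41% of all genes called), in Q175 at 6 months (0 of 87, 1 unadjusted, 0.0082%) or in Q175 at 12 months (0 of 87, 4 unadjusted, 3.15%). At 12 weeks 1 of 88 was called in R62, with 6.08% of all genes called, 2.52% higher. This was the complex I assembly factor Ndufaf4, at 10.04, 9.88, 10.22, 10.06, 10.08 and 9.97 in R62 and 9.55, 9.89, 9.37, 9.47 and 9.79 in WT (0.43 ± 0.11, limma adjusted p = 0.0197). R62 pool 13 and WT pool 14 overlapped narrowly. The second probe set of Ndufaf4 differed by 0.00, and the call was lost without WT pool 16 or 18. Cox6b2 in microglia differed by 0.10 and -0.08 in R62 at 6 and 12 weeks and by 0.07 and 0.56 in Q175 at 6 and 12 months, none of them called (limma adjusted p = 0.209 for the last). The members with the smallest p otherwise were Sdhb (-0.22), Atp5k (-0.17) and Cox8a (-0.20) in R62 at 6 weeks, and Ndufa12 (0.30) and Ndufb1 (-0.49) at 12 weeks. In Q175 they were Ndufs7 (-0.22), Ndufaf5 (-0.23) and Ndufa8 (-0.21) at 6 months, and Ndufaf6 (-0.42) and Cox8b (-0.45) at 12 months.

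In the negative fraction, Cox6b2 was called in R62 at both ages. At 6 weeks it was 9.41, 9.84, 9.77, 9.77 and 9.27 in R62 and 8.61, 8.21, 8.38, 8.30 and 8.56 in WT, with no overlap (1.20 ± 0.18, limma adjusted p = 0.00226). It was the 1 called member of 86 at that age, where 0.377% of all genes were called, 0.345% higher. At 12 weeks it was 9.84, 10.53, 10.66, 10.75, 10.12 and 10.24 in R62 and 9.19, 9.39, 9.88, 9.76 and 9.12 in WT, so R62 pool 11 lay just under WT pool 16, and the difference was 0.89 ± 0.17 (limma adjusted p = 0.000654). Astrocyte markers in this fraction averaged 10.23 ± 0.09 in R62 and 9.98 ± 0.37 in WT at 6 weeks, with 0 of 10 called. At 12 weeks they averaged 10.25 ± 0.34 (9.62 to 10.53) in R62 and 8.84 ± 0.12 (8.70 to 8.99) in WT, and 9 of 10 were called higher. With the astrocyte marker mean as a covariate, the difference of Cox6b2 at 6 weeks was 1.04 (limma adjusted p = 0.00374). At 12 weeks it was -0.02 and no member was called, but there the covariate separates the genotypes completely, so the marker level and the genotype cannot be told apart.

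At 12 weeks 5 of 86 members rose and 2 fell in the R62 negative fraction, with a median of 0.09 over the members (all genes 0.02) and 26.2% of all genes called, 15.5% higher and 10.7% lower. Besides Cox6b2, Ndufs1 rose, a core iron-sulphur subunit at the entry of complex I. It was 10.78, 10.94, 11.13, 10.93, 11.20 and 11.13 in R62 and 10.63, 10.65, 10.89, 10.49 and 10.54 in WT, where 1 WT pool overlapped the R62 values (0.38 ± 0.09, limma adjusted p = 0.00281). The accessory subunits Ndufa3 (0.24, adjusted p = 0.0180) and Ndufa13 (0.18, adjusted p = 0.0471) and the complex II flavoprotein gene Sdha (0.23, adjusted p = 0.0461 by limma) rose as well. The call of Ndufa13 was lost without any of 8 single pools and that of Sdha without any of 10. With arrays centred on their medians, 2 members rose and 2 fell, and the same counts came without WT pools 12 and 20, which had the low Y-linked level. Without R62 pool 11, 11 rose and 2 fell. The astrocyte markers rose on these same arrays, as given above.

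Ndufa4l2 and Cox4i2 were lower in R62 than in WT in the same fraction at 12 weeks. For both genes, the WT negative fraction at 12 weeks had the highest mean of the 24 groups. Ndufa4l2 was 10.50, 10.46, 9.86, 9.30, 10.14 and 10.62 in R62 at 12 weeks and 11.64, 11.94, 11.87, 11.68 and 11.63 in WT, with more than 1 log2 unit between the groups (-1.60 ± 0.24, limma adjusted p = 4.25e-05). At 6 weeks it was 9.84, 8.17, 9.10, 9.19 and 9.03 in R62 and 9.48, 10.02, 9.81, 9.77 and 9.94 in WT, a difference of -0.74 that was not called (limma adjusted p = 0.410). Cox4i2 at 12 weeks was 8.27, 8.15, 8.07, 7.76, 8.22 and 9.82 in R62 and 9.89, 9.78, 9.97, 9.45 and 9.07 in WT (-1.25 ± 0.30, limma adjusted p = 0.00425). R62 pool 21 alone lay among the WT values, and without single pools the difference ranged from -1.54 to -1.13. Vessel markers averaged 11.50 ± 0.27 in R62 and 12.06 ± 0.15 in WT. Each of the 9 was lower in R62, from -1.04 for Kdr to -0.27 for Rgs5, and 2 were called, Kdr and Pdgfrb (-0.87). With the mean of the vessel markers as a covariate, Ndufa4l2 differed by -1.23 and Cox4i2 by -0.93 (limma adjusted p = 0.000299 and 0.0474). That mean pools endothelial and mural genes and was itself lower in R62, so this fit does not separate vessel content from genotype. The part of vessel cells in these differences was not tested. In Q175 neither Ndufa4l2 nor Cox4i2 was called at either age in the negative fraction, where Ndufa4l2 differed by -0.28 and -0.63 and Cox4i2 by -0.50 and -0.34.

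Cox7b2 was listed near the bottom of the scale in the negative fraction, at 2.99, 3.06, 2.91, 3.66 and 3.21 in WT at 12 weeks. In R62 it was 3.53, 3.39, 4.41, 4.61, 5.52 and 5.48, so 4 R62 pools lay above every WT pool. The WT values may not be above background, so no difference is given. In WT samples Cox7b2 was highest in astrocytes, and the astrocyte markers rose in these R62 samples, as given above.

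No member was called in the negative fraction of Q175 mice at 6 months (0 of 88 by limma, 2 at an unadjusted p below 0.05, 0% of all genes called) or at 12 months (0 of 88, 11 unadjusted, 6.93%). The smallest adjusted p at 12 months was 0.0522 by limma, for Ndufaf7 (-0.46), followed by Cox5a (-0.30, adjusted p = 0.0727) and the complex I core subunit Ndufv1 (0.52, adjusted p = 0.0751). At 6 months the first members were Ndufaf1 (0.39), Cox6b1 (0.27) and Cox7a1 (-0.52), with an adjusted p of 0.998 by limma. Cox6b2 differed by 0.36 and 0.51 at the 2 ages. At 12 months the Cox6b2 level was highest in Q175 pool 33. Another library of that group, Q175 pool 31, had a mean of microglia markers of 9.92, against 5.74 to 6.27 in the other 3. Without pool 33, 2 members were called, both lower, and without WT pool 37, 1 was.

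Across all comparisons, Cox6b2 was higher in the mutant mean in 11 of 12 fraction and age pairs, the exception being microglia of R62 at 12 weeks. It was called in 4 of them. Fractions of the same pool are not independent, and the pairs of 1 age share their pools.

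The R62 effect at 12 weeks was then compared between fractions. Against microglia, 3 of 87 members differed in astrocytes, where 9.6% of all genes did (6.01% higher, 3.59% lower): Cox4i2 (-1.38 ± 0.35, limma adjusted p = 0.00678), Ndufs5 (-0.39 ± 0.12, adjusted p = 0.0330) and Cox6b2 (0.74 ± 0.23, adjusted p = 0.0303). With the pool as a random replicate block, 5 did, the added ones being Ndufa4l2 (-0.80, adjusted p = 0.0420) and Atp5a1 (0.21, adjusted p = 0.0472), and the other 3 were kept. Without the microglia library of WT pool 20, 1 member was called. The call of Cox6b2 was lost without any of 5 of the 22 libraries (astrocytes of R62 pool 17 and WT pool 14, microglia of R62 pool 13 and WT pools 16 and 20). That of Ndufs5 was lost without any of 6 (astrocytes of R62 pool 11 and WT pool 16, microglia of R62 pools 17 and 21 and WT pools 12 and 20).

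Against the negative fraction, 4 of 87 members differed, all with a lower effect in astrocytes, where 18.7% of all genes differed, 11.5% with a lower effect. They were Ndufs1 (-0.39 ± 0.11, limma adjusted p = 0.00495), Sdhb (-0.39, adjusted p = 0.0366), Ndufa10 (-0.38, adjusted p = 0.0449) and Sdhc (-0.30, adjusted p = 0.0461). With the pool as a replicate block 10 differed, all lower in astrocytes, and they held the first 4 along with Ndufaf1 (-0.49), Ndufa6 (-0.35), Ndufb9 (-0.34), Cox8a (-0.24), Ndufs7 (-0.24) and Ndufa3 (-0.23). Leaving out single libraries gave 1 to 12 calls, and it moved the count by more than 1.5 times for 12 of 22 libraries: the astrocyte libraries of R62 pools 11 and 17 and WT pools 14, 16 and 20, and the negative libraries of R62 pools 11, 15 and 19 and WT pools 12, 14, 16 and 18. Ndufs1 kept its call in each of these fits. The rise of astrocyte markers in the R62 negative fraction stands beside these differences, and its part in them was not tested.

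No member was called for a difference between 6 and 12 months in WT mice or for an interaction of age and genotype. Samples of 6 and 12 weeks were not tested against each other. The R62 effect at 12 weeks did not differ from that at 6 weeks for any member by limma in astrocytes (2 at an unadjusted p below 0.05, 1.15% of all genes called), microglia (2, 0.251%) or the negative fraction (5, 4.25%), and the Q175 effect did not differ between 12 and 6 months in astrocytes (0, 0.00808%), microglia (1, 0%) or the negative fraction (9, 0.0317%). Between 6 and 12 months in WT mice, 0 members were called by limma in astrocytes (10 at an unadjusted p below 0.05, 3.99% of all genes called), microglia (11, 7.79%) and the negative fraction (4, 0.0634%). In WT astrocytes Ndufaf2 (-0.43), Ndufb6 (-0.26) and Uqcrc1 (0.42) had the smallest p, and Ndufaf2 (-0.38) and Uqcrc1 (0.51) led in WT microglia too, with limma adjusted p-values of 0.0834 to 0.103 over the 5. Without WT pool 25 of 6 months, 2 members were called in astrocytes and 1 in microglia. Without single libraries 1 member was called in the R62 age interaction of the negative fraction in 4 of 21 cases (R62 pools 7, 11 and 19 and WT pool 16).

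Genes that serve the chain without being part of it were taken from lists of their functions. Among other assembly factors of the complexes and cytochrome c, 17 of 35 were higher and 7 lower in WT astrocytes than in microglia (median 0.18), beside 44.9% of all genes higher and 40.7% lower. Of 16 genes of pyruvate dehydrogenase and the tricarboxylic acid cycle, 12 were higher and 0 lower (0.62), close to the chain itself. Of 15 genes of glycolysis, 12 were higher and 2 lower (0.56), and Hk2, a hexokinase, differed by -5.35. Of 76 genes named for the mitochondrial ribosome (symbols that begin with Mrpl or Mrps, whatever their function), 56 were higher and 9 lower (0.33). Of 14 regulators of mitochondrial genes, 3 were higher and 7 lower (-0.13), and Ppargc1a, the coactivator of mitochondrial biogenesis, was 5.74 above microglia and 3.84 above the negative fraction in astrocytes. Cox10, which makes the haem of complex IV, was 2.40 higher than in microglia.

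In R62 astrocytes at 12 weeks, 4 of 36 assembly genes rose and 6 fell, beside 14.5% and 14.2% of all genes. Among them were Ttc19 (0.68), a complex III factor, Bcs1l (-0.53), which inserts the Rieske protein, and Coa6 (-0.48), a copper factor of complex IV. None of 16 tricarboxylic acid cycle genes was called by limma (1 at an unadjusted p below 0.05), and of 15 glycolysis genes 1 rose (Pkm, 0.38) and 2 fell (Ldha, -0.53, and Pfkp, -0.44). Of the 76 genes named for the mitochondrial ribosome 2 rose and 10 fell, among them Mrps36 (-0.43), Mrpl40 (-0.42) and Mrpl17 (-0.41). Tfam, the packaging factor of mitochondrial DNA, fell (-0.32), and the subunits Gabpb2 (0.38) and Gabpa (0.28) of nuclear respiratory factor 2 rose. In R62 microglia at 12 weeks Tfam fell too (-0.46), with the assembly genes Nubpl (-0.45), Sco1 (-0.40) and Lrpprc (-0.26) and the ribosomal gene Mrps30 (-0.27). In the R62 negative fraction at 12 weeks 6 of 15 glycolysis genes rose and 0 fell, beside 15.5% and 10.7% of all genes. They were led by Aldoc (4.01), an astrocyte-enriched aldolase, Ldhb (1.17) and Pfkm (0.87). Ppargc1a rose there by 2.94 and Ppargc1b fell (-1.31), beside the rise of astrocyte markers given above. In Q175 at 12 months, Sdhaf1 (0.40), a complex II assembly factor, and Mrpl54 (0.45) rose in astrocytes, and Gabpb1 (-0.72), Gabpa (-0.51) and Mrpl47 (-0.46) fell in the negative fraction.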

How the data were processed

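The deposited files hold log2 values of 111 Affymetrix arrays. The submitters' processing notes list affy, RMA and limma as the authors' tools, with no version or order. RMA corrects background, normalises quantiles and summarises the probes of a set. Values ran from 1.50 to 14.26, and array medians from 6.26 to 6.65. They were used without further normalisation, so a level is relative within a probe set and the number of arrays limits precision. Of 45101 probe sets, 34958 had 1 symbol, 932 several and 9211 none in the platform annotation. Gene identifiers matched 34754 of the former to RefSeq and changed 0 symbols. The members had 180 probe sets, and 40 members had 1.

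A gene was tested where its mean over the arrays of a fit reached the 40th percentile of probe set means. limma 3.58.1 in R 4.3.3 (lmFit, eBayes, two-sided) was fitted over all genes, with the 4 groups of a fraction and model in 1 fit. WT fractions were fitted with age as a term. The fraction comparison of the R62 effect at 12 weeks came from 1 fit of the R62 and WT samples of both week ages and every fraction. The scripts were tested on simulated data. Members named were mostly drawn from the 10 called genes with the largest change per direction. Where fewer than 3 were called, the 3 with the smallest p were taken. The isoform pairs, the Sdh genes and Cyc1 were added. The text does not follow this choice in full. In WT astrocytes against microglia it names Cox5a and Atp5b from outside it and leaves out Ndufb6. Members, lists and tests were chosen with earlier results of these data known.

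Fractions of 1 number come from 1 dissociated pool per the labels, so numbers pair fractions but not genotypes. The deviations of same-numbered samples from their group means correlated with a median of 0.11 between astrocytes and microglia, 0.21 between astrocytes and the negative fraction and 0.10 between microglia and the negative fraction, and exceeded 0.1 in 24, 27 and 19 of 37 pools. The fit with pools as a block is given where it moved a count. Alternatives were centring on array medians, the mean of probe sets, no filter, 2 groups alone, a Y-linked covariate and leaving out each library. Marker covariates, subsets of ages and leaving out named pools were added after seeing the data.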

Additional observations from a re-analysis of the deposited data

Results flagged for a closer look

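The sample values of Cox6b2, Cox4i2, Ndufa4l2, Cox7b2, Cox7a1, Cox6a2 and the mean over all members were checked. The other isoforms, such as Cox8b, were not. The check sought a highest or lowest sample far from the others of its group. Of 168 groups of values, 12 had such a sample, and chance gives about 1 in 20. For Cox4i2 these were WT astrocytes at 6 weeks (pool 3 at 8.33, nearest 7.50) and the R62 negative fraction at 12 weeks (pool 21 at 9.82, nearest 8.27). For Cox6a2 they were WT astrocytes at 6 months (pool 23 at 7.09, nearest 6.51), WT microglia at 12 weeks (pool 16 at 8.95, nearest 8.34) and the WT negative fraction at 12 months (pool 37 at 6.61, nearest 6.22). For Cox6b2 they were R62 astrocytes at 12 weeks (pool 17 at 10.97, nearest 10.68), R62 microglia at 12 weeks (pool 15 at 8.62, nearest 8.17) and the Q175 negative fraction at 12 months (pool 33 at 10.20, nearest 9.37). For Cox7a1 they were WT microglia at 6 weeks (pool 2 at 7.34, nearest 5.43) and the R62 negative fraction at 12 weeks (pool 21 at 7.61, nearest 6.83). Ndufa4l2 had 1 in the WT negative fraction at 12 months (pool 34 at 11.71, nearest 10.92). The mean over all members had 1 in R62 astrocytes at 6 weeks (pool 7 at 10.95, nearest 11.12).

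The R62 effect at 12 weeks differed between fractions, by a limma test of the difference itself, for 7 members. Between astrocytes and microglia these were Cox4i2 (-1.38), Cox6b2 (0.74) and Ndufs5 (-0.39). Between astrocytes and the negative fraction they were Ndufs1 (-0.39), Sdhb (-0.39), Ndufa10 (-0.38) and Sdhc (-0.30).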

How the results depend on the processing

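In the WT comparisons of fractions, no alternative moved the count of called members by more than 1.5 times, the replicate block included, which left 83, 72 and 78 calls. The counts that moved came from the comparisons of genotypes and ages. Centring arrays on their medians gave 23 called members in R62 astrocytes at 12 weeks (2 higher, 21 lower), 3 lower in WT astrocytes between 6 and 12 months, 1 lower in the Q175 negative fraction at 12 months and 4 in the R62 negative fraction at 12 weeks (2 higher, 2 lower). The latter count was also 4 with a Y-linked covariate, with the 2 groups alone and without the WT pools of low Y-linked level. It was 12 (10 higher, 2 lower) without both R62 libraries farthest from their group (pools 11 and 21), and 0 with the astrocyte marker mean as a covariate. In R62 microglia at 12 weeks it was 0 with the mean of probe sets and 0 with the 2 groups alone. With the pool as a replicate block, 5 members differed in the R62 effect between astrocytes and microglia and 10 between astrocytes and the negative fraction, and it changed no other call of a named member. The cause of these changes was not tested.

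Without single libraries the count ranged from 6 to 13 in R62 astrocytes, from 5 to 13 in the R62 negative fraction and from 0 to 1 in R62 microglia, all at 12 weeks. It ranged from 1 to 4 and from 1 to 12 for the R62 effect in astrocytes against microglia and against the negative fraction, from 0 to 1 in R62 astrocytes at 6 weeks and for the age interaction of the R62 negative fraction, and from 0 to 2 in the Q175 negative fraction at 12 months. Between 6 and 12 months in WT it was 0 to 2 in astrocytes and 0 to 1 in microglia. Of named differences, 4 changed sign: Cox6b2 in the R62 negative fraction at 12 weeks (-0.019 with the astrocyte covariate), Ndufa1 in WT astrocytes against the negative fraction (0.0082 with the week ages alone), and with the mean of probe sets Atp5g1 in Q175 astrocytes at 6 months (-0.12) and Ndufaf4 in WT microglia against the negative fraction (-0.066).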
